A study of Mus musculus with 9 samples.

Results

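The scramble libraries describe the RNA of electroporated cells of the embryonic mouse cortex that received a scrambled sequence. They are 3 of the 9 libraries of the series, chosen by their label. Embryos of strain C57BL/6 were electroporated in utero at E13.5 (days of embryonic development) with 1 scrambled shRNA sequence. The cortex was taken at E15.5, 48 hours later, and GFP+ cells were sorted by FACS. Their RNA, isolated in Trizol, was sequenced from polyA-selected TruSeq libraries, in 3 biological replicates. The other libraries of the series came from cells with 3 shRNAs against circSlc45a4 or 2 shRNAs against the linear Slc45a4 mRNA, and they enter no value here. All 3 scramble libraries share the electroporation, the scrambled sequence, the GFP label and the sort, so they are a baseline of manipulated cells and not of untouched cortex. The labels do not say how many embryos gave each library, or whether embryos were pooled.

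In the embryonic cortex, apical progenitors divide along the ventricle, and electroporation reaches these cells first. They give rise to basal progenitors, which divide away from the ventricle, and to neurons that migrate outward. Neurons of the deep layers are born before those of the upper layers. A cell labelled at the ventricle therefore has progeny at each of these stages, and a bulk library of sorted cells holds their sum. In such a library, fewer cells of a type and less RNA per cell cannot be told apart.

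The 3 libraries held 21073174, 30788165 and 31833779 counts in replicates 1, 2 and 3. Levels are given as TPM, a relative transcript abundance in which the count is divided by the merged exon length of the gene and scaled so that all genes of a library sum to the same total. At a mean of 1 TPM or more, 15433 genes were detected, of which 11595 were protein-coding, 2497 were pseudogenes and 293 were lincRNAs. The number differed little between libraries, at 15401, 15359 and 15375 genes. No count fell on 28225 of the 53379 gene IDs in any of the 3 libraries. Y-linked transcripts were read in every library (Ddx3y at 19.5, 18.4 and 13.7 TPM), while Xist, the noncoding transcript that silences an X chromosome, was at 0.0325, 0.00906 and 0.00868 TPM.

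Some of the highest values belong to sequences that more than 1 gene carries. The mitochondrial gene mt-Co2 had 60077, 71465 and 80404 counts, and Gm28661, a copy of mitochondrial sequence on chromosome 1, had 60091, 71474 and 80423. For mt-Nd3 the counts were 7930, 8286 and 8928, against 7930, 8288 and 8930 for the chromosome 1 copy Gm28438. These pairs were chosen after their values were seen. Gene and copy were thus nearly equal in each library, and how the counting treated a read that matches several genes is not given in the sources used here. Pseudogenes together took 38.3 ± 0.219% of TPM (SD, n = 3) but 10.2 ± 0.127% of counts. Genes with 10% or more of their 50-base stretches in another gene took 59.3 ± 0.444% of TPM. The level of such a gene is uncertain, and TPM of all other genes is lowered by the copies in the denominator. Genes under that limit are termed unshared below.

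The most abundant transcripts of these cells were mitochondrial, cytoskeletal and translational. The 25 genes with the highest mean TPM held 17.1, 15.6 and 15.8% of TPM in replicates 1, 2 and 3. Among protein-coding genes, the alpha tubulin Tuba1a led with 11712, 11224 and 10586 TPM, followed by mt-Co1, a subunit of cytochrome c oxidase, with 11706, 10435 and 10857 TPM. Tuba1a is the main alpha tubulin of postmitotic neurons, and 72.9% of its 50-base stretches stand in another gene too. Other protein-coding genes of that set included mt-Atp6, mt-Co2, mt-Co3, mt-Cytb, mt-Nd1 and mt-Nd4, the elongation factor Eef1a1 (5809 ± 189 TPM), Tuba1b, Tuba1c, Tubb2b and the ubiquitin gene Ubb. A further 11 members were pseudogenes, such as Gm29216 (13146 ± 565 TPM), which has 97.1% of its 50-base stretches in another gene. mt-Cytb (7158, 6818 and 6616 TPM) and mt-Nd1 (4782, 3966 and 4347 TPM) have no such stretch in another gene.

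Among unshared nuclear protein-coding genes, one of the most abundant was Tmsb4x, which encodes the actin-binding peptide thymosin beta 4, with 3141, 2439.8 and 2323 TPM. The beta tubulin Tubb5 had 2088, 2156 and 2148 TPM, and its coefficient of variation (CV, the SD over the mean of scaled counts) of 0.143% was among the 6 lowest of the spread ranking described further on. Neuronal genes stood in this company. The neuronal beta tubulin Tubb3 was at 1371 ± 41.7 TPM, the bHLH factor Neurod6 at 1341 ± 107 TPM, and Sox4, a SoxC factor of differentiating neurons, at 756 ± 56.8 TPM. The MARCKS-like protein Marcksl1 (1994 ± 83.3 TPM), the growth cone protein Basp1 (876 ± 98.7 TPM) and the membrane glycoprotein Gpm6a (712 ± 118 TPM) were in the same set of 25, chosen after their values were seen. With Neurod6, a transcription factor stood among the structural and translational genes, at rank 41 of all protein-coding genes.

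The 6 markers set for the group were all read in all 3 libraries. Dcx (chrX:143855842-143933311), a microtubule-associated protein of migrating neurons, had 402, 343 and 336 TPM. Eomes (chr9:118478212-118486132), the T-box factor of basal progenitors also known as Tbr2, had 263, 286 and 265 TPM. Fabp7 (chr10:57784881-57788450), a lipid carrier of radial glia, had 265, 285 and 227 TPM. On merged exon lengths, these transcripts of a neuron, a basal and an apical progenitor were thus within a factor of 2 of each other in each library. Stmn2 (chr3:8509360-8561606), a stathmin of growing axons, had 225, 189.9 and 170.4 TPM. Cux2 (chr5:121856366-122050102), a homeodomain factor of upper-layer neurons and their progenitors, had 65.1, 83.5 and 67.4 TPM. Foxp2 (chr6:14901349-15441977), a forkhead factor of corticothalamic neurons, was far lower, with 2.803, 2.84 and 3.78 TPM. Its merged exons measure 16346 bases against 6760 for its longest transcript, which lowers its TPM. Dcx and Stmn2 were highest in replicate 1, and Foxp2 was highest in replicate 3. The coordinates are those of GRCm38, the assembly of mm10. The order by mean TPM was Dcx, Eomes, Fabp7, Stmn2, Cux2 and Foxp2, and the ranges of Eomes and Fabp7 overlapped over the libraries. This order, too, is that of merged exon lengths.

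**Figure D1:**
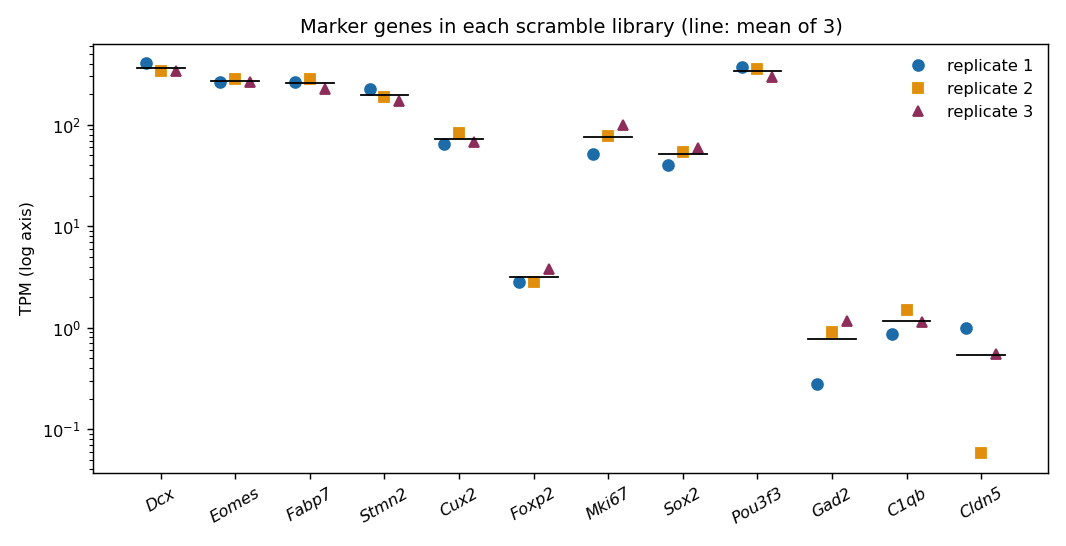
TPM (log axis) of 12 marker genes in each of the 3 scramble libraries, with a line at the mean. Dcx, Eomes, Fabp7 and Stmn2 lie between 170.4 and 402 TPM, Foxp2 lies near 3.14, and Gad2, C1qb and Cldn5, markers of GABAergic neurons, microglia and endothelium, are at or below 1.49.

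Neuronal markers had the highest levels of the cell type lists. The 30 markers of newborn and migrating neurons summed to 10368, 9756 and 9279.7 TPM, and 30 of 30 were at 1 TPM or more. Stmn1 led with 2357 ± 64.1 TPM, although it shares sequence with other genes, followed by Tubb3 and Neurod6. Cntn2, an axonal cell adhesion protein of migrating cortical neurons, had 517, 484 and 459 TPM, and the bHLH factor Neurod2 had 477, 435 and 374 TPM. The lowest 3 were the neurofilament subunits Nefl (8.94 ± 1.73 TPM) and Nefm (14.5 ± 1.58 TPM) and the splicing regulator Celf4 (27.5 ± 2.26 TPM). Neurofilaments are abundant in mature axons.

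Basal progenitor markers summed to 2644, 3014 and 3061 TPM, with 20 of 21 members at 1 TPM or more. Rnd2, a small GTPase that acts in radial migration, was the highest with 433, 462 and 515 TPM. Insm1, a zinc finger factor of delaminating progenitors, followed with 314, 322 and 284 TPM, ahead of Eomes. Btg2, an antiproliferative gene of progenitors in their neurogenic division, had 195, 246 and 267 TPM, and the proneural factor Neurog2 had 187, 229.6 and 233 TPM. Sstr2, a somatostatin receptor, was at 230.2 ± 21.4 TPM. At the other end stood Kif26b (14.9 ± 1.94 TPM), Neurod4 (5.48 ± 1.13 TPM) and the tachykinin precursor Tac2 (0.853 ± 0.235 TPM), the member under 1 TPM.

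Apical progenitor markers summed to 1581, 1775 and 1683 TPM, and 29 of 29 were at 1 TPM or more. After Fabp7 came the intermediate filament Vim with 168, 248 and 259.8 TPM, and the LIM homeodomain factor Lhx2 with 239, 220.0 and 194 TPM. Lhx2 is also a member of the upper-layer list. Dbi, an acyl-CoA binding protein, had 202 ± 18.3 TPM, N-cadherin (Cdh2) had 172 ± 11.2 TPM, and nestin (Nes) had 42.8, 60.4 and 64.3 TPM. Vim and Nes were lowest in replicate 1, and in Nes the gap to the other libraries was larger than the gap between them. Sox2, the SoxB1 factor that maintains progenitors, was at 51.2 ± 9.81 TPM. Low members were Ednrb (7.51 ± 0.523 TPM), the outer radial glia gene Hopx (5.06 ± 0.933 TPM) and Veph1 (3.69 ± 0.451 TPM). Which of the progenitor sums is higher depended on the gene length used: with the median transcript length of each gene, apical markers came to 2654 TPM and basal markers to 1955. The lists differ in their members, so the sums do not give shares of cells.

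Genes of upper-layer and of deep-layer neurons were both present. The 16 upper-layer genes summed to 1281, 1194 and 1001 TPM and the 17 deep-layer genes to 668, 707 and 755 TPM. In the upper-layer list, the POU factor Pou3f3 had 373, 354 and 299 TPM and Pou3f2 had 144, 115 and 97.7 TPM. Both were lowest in replicate 3. Low members of this list were the layer factor Rorb (1.91 ± 0.375 TPM), Inhba (2.58 ± 1.37 TPM) and Lpl (1.67 ± 0.6301 TPM). In the deep-layer list Nfib led with 188 ± 4.58 TPM, followed by Tbr1, the T-box factor of early-born neurons, with 111, 146 and 164 TPM. Bcl11b, also known as Ctip2 and a determinant of subcerebral neurons, had 62.8, 77.8 and 93.1 TPM, and its partner in that program, Fezf2, had 63.7, 66.2 and 74.1 TPM. Both were highest in replicate 3. Zfpm2 (1.46 ± 0.354 TPM), Crym (0.398 ± 0.126 TPM) and Rbp4 (0.1202 ± 0.161 TPM) were at the low end.

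Subplate and Cajal-Retzius genes, which mark the earliest-born neurons, were low. Subplate genes summed to 55.1 ± 3.101 TPM. Nxph4 (20.8 ± 2.74 TPM), Lpar1 (11.5 ± 0.8402 TPM), Nr4a2 (8.496 ± 1.46 TPM), Nxph3 (7.23 ± 2.06 TPM), Tmem163 (3.74 ± 0.599 TPM), Ccn2 (1.85 ± 0.533 TPM) and Zfpm2 were above 1 TPM, Kcnab1 was at 0.0525 TPM, and Cplx3, Moxd1 and Trh had no count. Of 12 Cajal-Retzius genes 5 reached 1 TPM: Nhlh2 (12.1 ± 3.47 TPM), the chemokine receptor Cxcr4 (8.24 ± 3.14 TPM), Ebf3 (2.75 ± 0.459 TPM), Cacna2d2 (1.91 ± 0.429 TPM) and Reln. Reln, the secreted glycoprotein that guides cortical layering, had 2.13, 2.79 and 5.73 TPM, highest in replicate 3. Trp73, Ebf1, Ebf2, Calb2, Ndnf, Lhx1 and Lhx5 had means between 0.02896 and 0.724 TPM. Trp73 (0.206 TPM) and Lhx5 are defining markers of Cajal-Retzius cells.

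Transcripts of cells that do not arise from the cortical ventricular zone were near the limit of detection. Of 69 genes of microglia, endothelium, pericytes, meninges, red blood cells and choroid plexus, 9 reached 1 TPM and 12 had no count in any library. They summed to 107, 109 and 131 TPM, against 9801 ± 546 TPM for the neuronal list. Most of this came from Mfsd2a, a lipid transporter, with 34.6, 42.3 and 44.5 TPM, from the adult globins Hba-a1, Hba-a2, Hbb-bs and Hbb-bt with 8.67 to 10.4 TPM each, and from the Wnt agonist Rspo3 with 15.7 ± 2.71 TPM. The defining endothelial genes stood apart from Mfsd2a, with Cldn5 at 0.988, 0.0574 and 0.5499 TPM and Cdh5 at 0.499, 0.0193 and 0.259 TPM. The choroid plexus and hem genes likewise stood apart from Rspo3, with Ttr at 0, 0.206 and 1.64 TPM and Kl, Kcnj13, Bmp4 and Wnt3a at 0. Globin pairs share their sequence, and the erythroid factor Gata1 was at 0.

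Microglial transcripts were read at very low levels, with the complement genes C1qb at 0.857, 1.49 and 1.15 TPM, C1qc at 0.789 and C1qa at 0.701 TPM, and Trem2 and Pf4 at 0. The pericyte list was led by Notch3 (6.78 ± 1.897 TPM), while Pdgfrb, a defining gene of pericytes, was at 0.6496 ± 0.119 TPM. Collagen Col1a1 of the meninges was at 0.258 ± 0.154 TPM and Foxc1 at 0. For a gene at 0, a true level of up to 3 counts is still possible, or 0.144, 0.0973 and 0.0933 CPM in replicates 1, 2 and 3, and this covers counting error only. Genes of other neural lineages were low as well. In the GABAergic list, Sp8 was at 4.14 ± 0.585 TPM, and it is known from progenitors of the cortex too. Dlx1 (0.801 ± 0.288 TPM) and Gad2 (0.278, 0.899 and 1.15 TPM) were low, Slc32a1, the vesicular GABA transporter, was at 0.0893 TPM, and Nkx2-1 was at 0. Gad2 was lowest in replicate 1.

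Astrocyte genes were led by the glutamate transporter Slc1a2 (2.42 ± 0.447 TPM), with Gfap at 0.0221 TPM and Agt, Gjb6 and S100b at 0. Of the oligodendrocyte list, 2 of 10 members were at 1 TPM or more, among them Mbp (1.198 ± 0.455 TPM), while Olig2 was at 0.218, Pdgfra at 0.0391, and Sox10, Gpr17 and Nkx2-2 at 0 in all 3 libraries. Of the ependymal list Foxj1 (2.46 ± 0.324 TPM) was the highest, and Pifo, Rsph1, Ccdc153 and Tmem212 had no count.

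**Figure D2:**
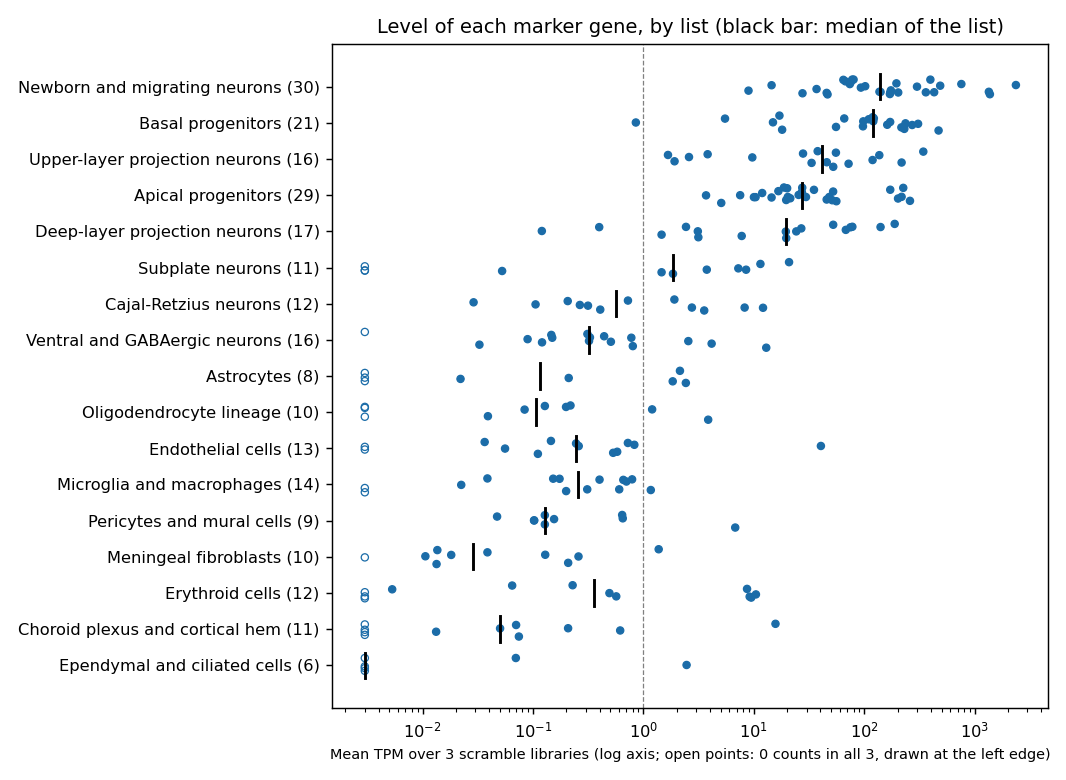
Mean TPM (log axis) of each gene in 17 marker lists, 1 point per gene, with a black bar at the list's median and open points for genes without a count. The medians run from 139 TPM for newborn neurons, 119 for basal and 27.2 for apical progenitors to under 1 TPM for Cajal-Retzius, GABAergic, glial and non-neural lists.

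Of the genes that mark regions of the neural tube, those of the dorsal telencephalon were the highest. Emx1, a homeodomain factor of the dorsal cortex, had 110.5, 118 and 112 TPM, and Nr2f1, also known as COUP-TFI, had 97.7 ± 11.1 TPM. Emx2 was at 26.6, 27.4 and 27.5 TPM. The hindbrain and spinal genes Hoxa5 and Hoxb4 and the midbrain gene En1 had no count in any library. Synaptic genes were present at this stage too, with 26 of 30 at 1 TPM or more. The AMPA receptor subunit Gria2 had 111, 99.1 and 97.1 TPM, the vesicle proteins Syt4 and Vamp2 had 93.2 ± 7.29 TPM and 70.7 ± 6.13 TPM, and the vesicular glutamate transporter Slc17a6 had 63.05, 63.7 and 67.2 TPM. The NMDA receptor subunits Grin2a (0.03700 TPM) and Grin3a (0.0793 TPM) and the transporter Slc17a8 (0.02296 TPM) were the lowest.

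Cells in cycle contributed throughout. The 28 S phase genes summed to 926, 1227 and 1419 TPM and the 28 G2 and M phase genes to 586, 823 and 1062 TPM. Pcna, the sliding clamp of DNA replication, had 160.3, 204 and 241 TPM, the ribonucleotide reductase subunit Rrm2 had 83.9, 119 and 156 TPM, and the helicase subunit Mcm6 had 52.8, 67.2 and 71.9 TPM. Of the mitotic genes, Mki67, the antigen of cycling cells, had 51.7, 77.7 and 100.2 TPM, topoisomerase Top2a had 46.99, 65.7 and 90.5 TPM, and the cyclin Ccnb2 had 32.4, 43.4 and 58.9 TPM. Each of these was lowest in replicate 1 and highest in replicate 3. Replication-dependent histones, whose mRNAs carry no polyA tail, summed to 77.5 ± 18.2 TPM over 15 genes, most of them with shared sequence.

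The interferon list was low, with 6 of 17 genes at 1 TPM or more. Stat2 led it with 12.9 ± 0.621 TPM, and Usp18 (0.877, 2.36 and 0.474 TPM) and Bst2 (2.58, 5.49 and 0.776 TPM) were highest in replicate 2. Ifit1, Rsad2 and Mx1, named after their values were seen, stood between 0 and 0.269 TPM. Of the small RNA machinery that processes hairpins, 13 of 13 genes were at 1 TPM or more. Drosha, the nuclease that cuts primary hairpins, had 80.2, 80.3 and 80.1 TPM, nearly the same in each library. Xpo5, which exports hairpins from the nucleus, had 37.02, 38.3 and 34.6 TPM, and Prkra, a partner of Dicer, had 54.95, 55.6 and 55.4 TPM. These 13 genes, at 39.7 to 701 CPM (counts scaled to a common library size), had a median coefficient of variation of 2.69%. Over all genes it was 5.75% at 30 to 100 CPM and 4.39% at 100 to 300 CPM.

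Slc45a4, the gene that the other arms of the study target, had 9.03, 9.96 and 10.1 TPM in scramble cells. It encodes a transporter of the SLC45 family, and its count cannot separate a circular from a linear transcript. Slc45a1 was lower, with 6.02, 5.62 and 5.67 TPM, and Slc45a3 was at 0.989 ± 0.492 TPM. Slc45a2, the transporter of pigment cells, had no count in any library. Of the polyamine genes, Odc1, the rate-limiting enzyme of polyamine synthesis, had 240.1, 222 and 224 TPM, with shared sequence, and spermidine synthase (Srm) had 109, 109.9 and 106 TPM.

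Within gene families, a single member usually made up most of the transcript. Of 96 families, the first member held over 50% of the summed TPM in 3 of 3 libraries in 72 (75%), and in 13 its share was 90% or more. In the 79 families whose first and second members are unshared, the count was 59 (74.7%). In a family of 2 members, the leader passes 50% whenever the order is the same in all 3 libraries. Family size therefore sets part of these counts. The first member was higher than the second in all 3 libraries in 90 families. No p is given for these orders, since an exact 2-sided sign permutation over 3 libraries cannot go below 0.25. The sign of the log2 ratio of the first to the second member held in 75 of 95 families under 6 other settings, and it changed with another gene length in 16. With the median transcript length, the ratio kept its sign but moved by at least its SD in 67 families.

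Of 22 transcription factor families, 19 were led by a member over 50%. Neurog2 took 93.3, 92.95 and 90.9% of neurogenin TPM in replicates 1, 2 and 3. Its paralog Neurog1 was at 18.02 ± 4.94 TPM, and Neurog3 had no count. Neurod6 took 72.1, 70.6 and 72.1% of the Neurod family, ahead of Neurod2, with a log2 ratio of 1.65 ± 0.09 (SD, n = 3). Nr2f1 took 92.1% of the COUP-TF genes on average, Emx1 80.6% against Emx2, and Cux2 72.03% against Cux1. In the Foxp family, Foxp4 (79.3, 86.5 and 88.04 TPM) was above Foxp1 (7.53, 7.82 and 7.92 TPM) and the layer marker Foxp2, with a log2 ratio of Foxp4 to Foxp1 of 3.45 ± 0.04. The size of that ratio depended on gene length, at 1.42 with the median transcript length and 1.97 in CPM. Id2 took 85.4, 75.8 and 68.5% of the Id genes, a share lowest in replicate 3, where Id4 was highest.

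Other transcription factor families were shared more evenly. Sox4 held 60.2, 60.4 and 59.1% of SoxC TPM, ahead of Sox11 (396 ± 25.6 TPM). Eomes held 70.2, 66.2 and 61.7% of its T-box subfamily against Tbr1, but with the median transcript length Tbr1 was the higher, at a log2 ratio of -0.48. Bcl11b held 42.9, 52.99 and 56.4% against Bcl11a, so that Bcl11a was the higher in replicate 1 and Bcl11b in the others. That order changed sign with another length, and without replicate 2 or 3. Nfib and Nfix were near each other too, with Nfib at 45.1, 50.3 and 52.3% of the nuclear factor I family. Tcf3 was above Tcf4 on merged lengths (log2 ratio 0.54 ± 0.32), but Tcf4 was the higher on every other length and in CPM.

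In cell cycle and chromatin families, Cdk4 held 96.00, 95.8 and 96.1% against Cdk6, a log2 ratio of 4.58 ± 0.06. That ratio was 3.14 with the median transcript length and 2.48 in CPM. Ccnd2 held 76.7, 74.8 and 75.7% of the D cyclins, ahead of Ccnd1 (19.3 ± 4.84 TPM). Cdkn1b, also known as p27, held 75.9% of the Cip and Kip inhibitors on average, and Cdkn1c was second with 39.6 ± 1.63 TPM. The BAF ATPase Smarca4 held 94.1, 94.2 and 94.2% against Smarca2, and the methyltransferase Ezh2 held 92.2% against Ezh1. The lead of Smarca4 depended on gene length, with a log2 ratio of 4.02 on merged lengths and 0.12 with the median transcript length. Of the BAF53 subunits, the progenitor form Actl6a held 62.3, 66.5 and 68.7% and the neuronal form Actl6b the rest. This share was lowest in replicate 1, as the S phase and mitotic genes were.

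Among RNA-binding proteins, Ago1 held 85.5, 86.8 and 86.9% of Argonaute TPM, against 11.5 TPM for Ago2, the member that can slice a target. Nova2 held 93.8% against Nova1, and Msi1 73.5% against Msi2. With the median transcript length Nova2 and Nova1 were nearly equal, at a log2 ratio of 0.00704 against 3.94 on merged lengths. Ptbp1, the progenitor form of the polypyrimidine tract binding proteins, held 52.2, 59.00 and 59.01%, ahead of Ptbp2 (83.6 ± 1.86 TPM). That order changed sign with the median transcript length and in CPM. Elavl3 (174 ± 7.96 TPM) was above Elavl4 (122 ± 3.36 TPM), without a member over 50%.

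Among membrane proteins, a member over 50% led 7 of 11 channel, receptor, transporter and vesicle protein families and 2 of 4 adhesion families, against 75% over all families. None of these membrane and adhesion families has only 2 members, while the 75% includes families of 2. The shares are thus not of like families. Classical cadherins (Cdh2 first), nectins (Nectin2 first) and synaptotagmins (Syt11 first) had none. Cntn2 held 99.6, 99.5 and 99.3% of contactin TPM, with the second, Cntn3, at 0.956 ± 0.495 TPM. Itgb1 held 95.3% of the beta integrins, and Unc5d, a netrin receptor of migrating upper-layer neurons, held 84.1, 80.3 and 77.5% of the Unc5 genes. Nrp1 held 88.9, 86.6 and 79.9% of the neuropilins, a share lowest in replicate 3. Gria2 held 78.9% of AMPA receptor TPM, Grin2b 74.6% of NMDA receptor TPM, and Slc17a6 78.8% of vesicular glutamate transporter TPM. Grin2b itself was low, with 4.91 ± 0.579 TPM. Notch1 held 63.02% of the Notch receptors and Dll1 63.4% of their ligands. No gene led the brain sodium channels, where Scn3a (12.7 ± 0.259 TPM) and Scn1a (10.97 ± 1.05 TPM) were first and second.

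In metabolism, Ldhb held 94.2, 91.1 and 90.6% against Ldha, though Ldhb shares sequence with other genes, and Ckb held 99.05% of creatine kinase TPM. Pkm was read at 361 ± 27.1 TPM, while Pklr had no count. Of the fatty acid binding proteins, Fabp7 held 54.02, 56.7 and 49.4%, ahead of Fabp5 (212 ± 6.39 TPM), but in CPM, without length, Fabp5 was the higher by a log2 ratio of -1.23 (Fabp7 over Fabp5). In the cytoskeleton, Marcksl1 held 88.4% against Marcks, Dcx 81.6% of the doublecortin family, and Kif5c 63.9% of the kinesin-1 heavy chains. The tubulin and actin orders (Tuba1a, Tubb2b and Actg1 first) rest on genes with shared sequence.

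**Figure D3:**
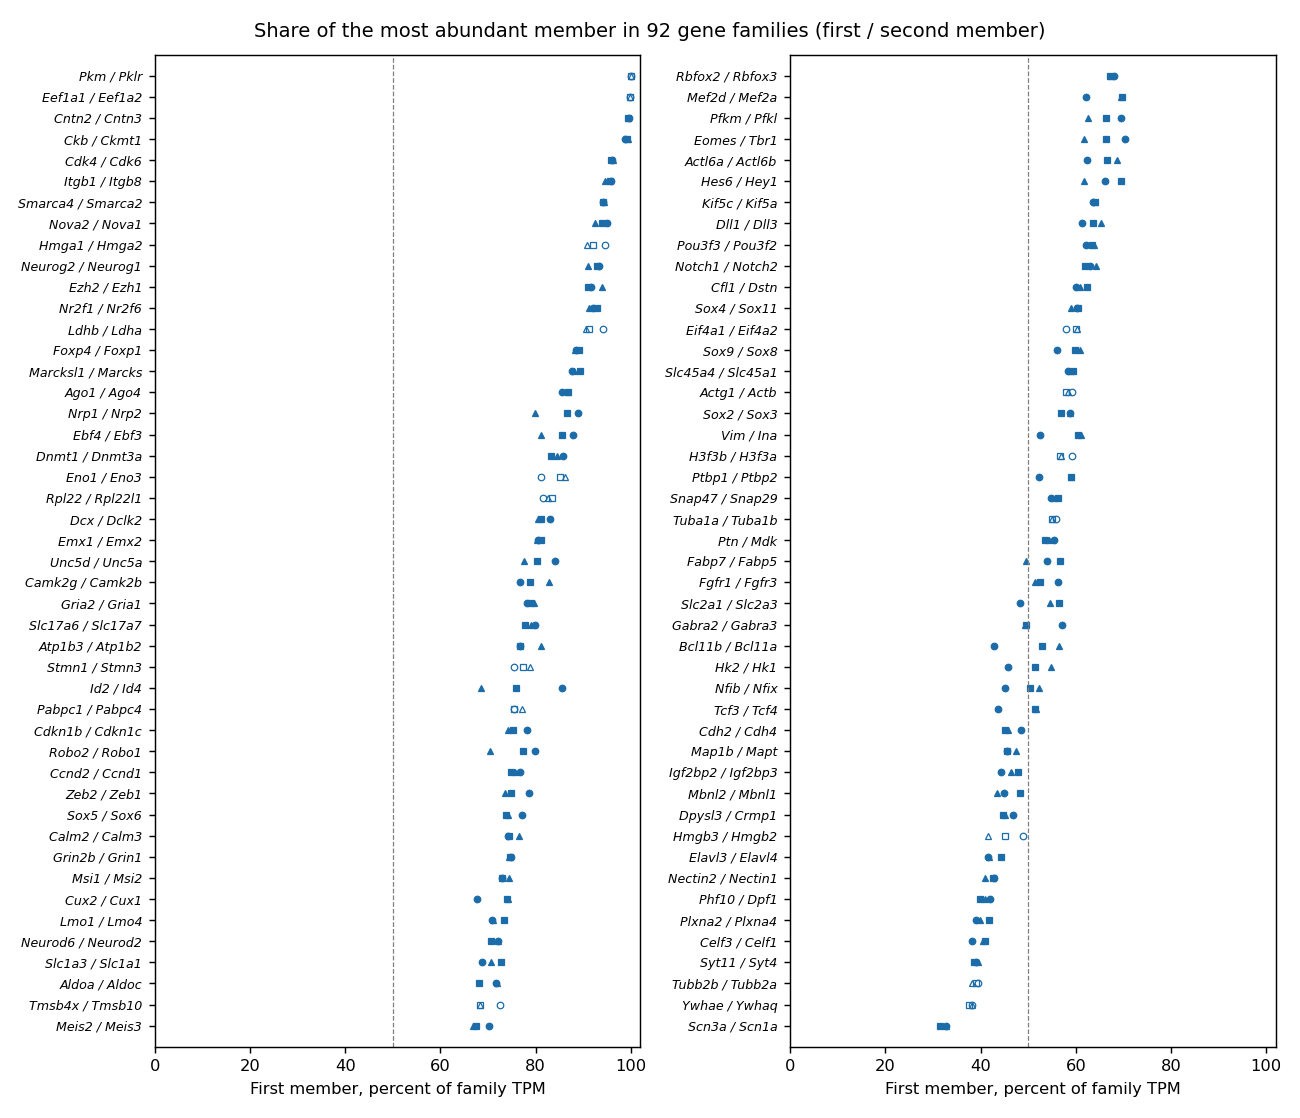
Share of the first member in the summed TPM of each of 92 of the 96 families, with 1 point per library (circle, square and triangle for replicates 1, 2 and 3), ordered by mean share from the top left to the bottom right. Open points mark families whose first or second member shares sequence with other genes, and the dashed line is at 50%. 13 families lie at 90% or more, from Ldhb at 91.98% up to Pkm at 100%.

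The libraries differed by more than counting error. Over 14611 genes at a mean of 1 CPM or more (counts scaled to a common library size, without length), the median coefficient of variation was 7.98%, against 3.62% from counting error alone. It fell from 24.3% in genes of 1 to 3 CPM to 4.31% in genes over 300 CPM. The common biological coefficient of variation of edgeR was 11.2%, and it was 8.21% without replicate 1, 14.4% without replicate 2 and 10.2% without replicate 3. Replicates 2 and 3 were the closest pair, with a mean chi-square of 8.47 per degree of freedom, against 11.4 for replicates 1 and 2 and 18.4 for replicates 1 and 3, where sampling noise gives 1. The pairs thus differed by more than counting, and none was counted as 1 sample.

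**Figure D4:**
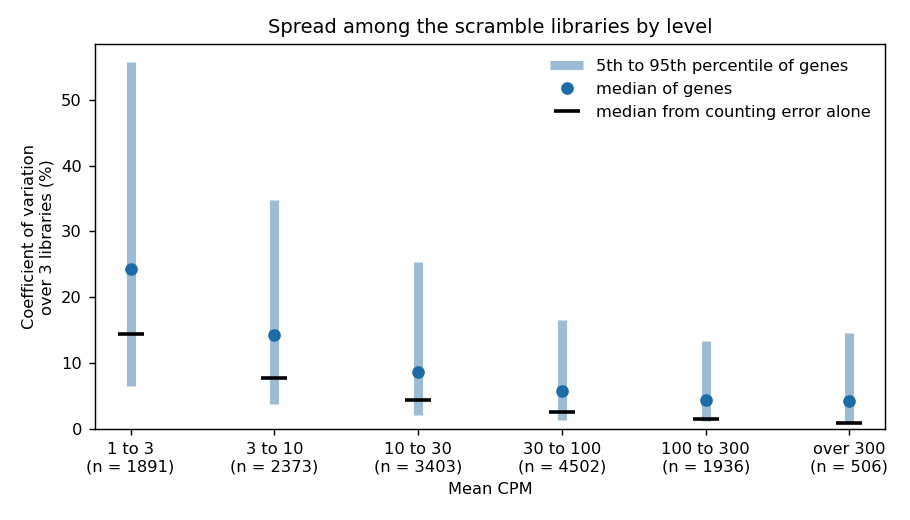
Coefficient of variation (%) over the 3 scramble libraries by mean CPM, as the median of the genes (points) and their 5th to 95th percentiles (bars), with the median that counting error alone gives (black ticks). The median lies above the counting error in each class, at 24.3% against 14.4% in the lowest and 4.31% against 0.907% in the highest.

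Cell cycle genes differed in concert. Of 28 G2 and M phase genes, 28 were lowest in replicate 1 and 28 were highest in replicate 3, where over all genes 37.2% were lowest in replicate 1 and 34.8% highest in replicate 3. Of 28 S phase genes, 28 were lowest in replicate 1 and 27 highest in replicate 3. The median deviation of G2 and M phase genes from their own means was -0.45, 0.02 and 0.41 log2 units in replicates 1, 2 and 3, and that of S phase genes was -0.29, 0.04 and 0.26. Progenitor genes leaned the same way, with 14 of 20 basal and 20 of 29 apical genes lowest in replicate 1. Cajal-Retzius genes at 1 CPM or more were highest in replicate 3 and lowest in replicate 1 in 7 of 7 cases.

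Genes of newborn neurons, upper layers and synapses leaned the other way. Over all genes, 37.3% were highest in replicate 1 and 34.4% lowest in replicate 3. Of 30 newborn neuron genes, 24 were highest in replicate 1 and 23 lowest in replicate 3, with median deviations of 0.14, -0.01 and -0.11. Of 16 upper-layer genes, 11 were highest in replicate 1 and 11 lowest in replicate 3, and of 26 synaptic genes 20 were highest in replicate 1. The 13 mitochondrially encoded protein genes were highest in replicate 1 in 13 of 13 cases, with median deviations of 0.18, -0.14 and -0.05. Deep-layer genes did not share this lean, with 10 of 15 lowest in replicate 1, against 37.2% over all genes. Nor did subplate genes (6 of 7 lowest in replicate 1) and GABAergic genes (3 of 4), counted at 1 CPM or more. Ribosomal protein genes differed little, with a median coefficient of variation of 3.17% over 81 genes. Replicate 1 was also the shallowest library, and the part of depth in these differences was not tested. Genes within a list are not independent, so the counts describe these 3 libraries.

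**Figure D5:**
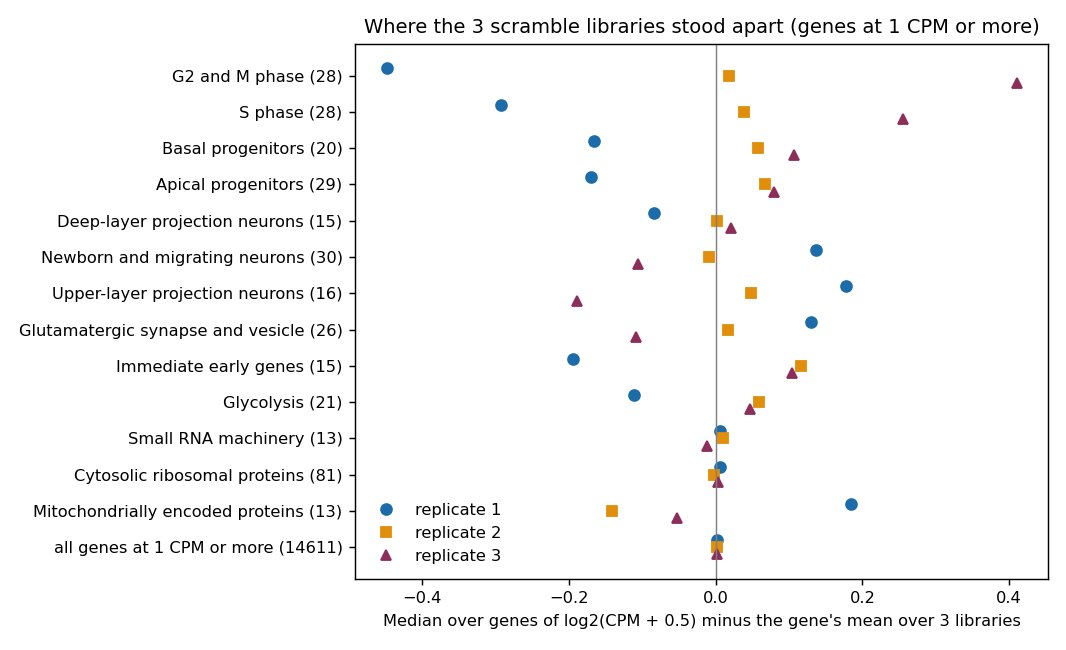
Median over the genes of each list (number in brackets) of log2(CPM + 0.5) minus the gene's own mean, in each of the 3 scramble libraries. Replicate 1 lies at -0.45 for G2 and M phase genes and at 0.14 for newborn neuron genes, replicate 3 at 0.41 and -0.11, while ribosomal protein genes lie near 0 in all 3.

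The genes with the widest spread were chosen by their coefficient of variation, so the values describe that choice. Plxnd1, a semaphorin receptor, had 9.31, 27.8 and 47.8 CPM in replicates 1, 2 and 3, a coefficient of variation of 68.1% and the highest of the protein-coding genes at 10 CPM or more. The sulfatase Sulf2 had 15.4, 27.9 and 52.3 CPM, Islr2 had 50.1, 92.6 and 169 CPM, and Reln had 20.8, 26.4 and 54.3 CPM. These were highest in replicate 3. In the opposite direction, the bicarbonate cotransporter Slc4a4 had 30.2, 15.3 and 7.71 CPM, the scaffold Dlg2 had 46.8, 24.9 and 17.6 CPM, and the adaptor Dok5 had 55.9, 35.1 and 18.7 CPM. Cemip was highest in replicate 3, and Adamts2, Clstn2, Hs6st2 and Wdfy1 were highest in replicate 1. These 12 genes had coefficients of variation of 50.8% to 68.1%.

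The immediate early genes Egr1 (28.1, 71.1 and 81.95 CPM) and Fos (10.8, 22.1 and 24.9 CPM) were lowest in replicate 1. Of the 15 genes of their list at 1 CPM or more, 12 were lowest there, against 37.2% over all genes. Immediate early genes respond to stimulation and to tissue handling within minutes. Replicate 2 had the fewest genes apart from both others: of 9002 protein-coding genes, 1 was over 1.5-fold above and 0 were below both others in replicate 2, against 18 and 59 in replicate 1 and 23 and 17 in replicate 3. The single gene in replicate 2 was Rnf213, a ubiquitin ligase, with 11.5, 24.2 and 14.2 CPM. At the other end, the RNA-binding protein Hnrnpa2b1 had 1297, 1295 and 1296 CPM (coefficient of variation 0.0592%), and Emx2 had 32.9, 32.9 and 32.9 CPM. Polr3d, Hectd2, Tubb5 and Cbfa2t2 were also among the 6 with the lowest spread. The median from counting error was 0.907% over 300 CPM, the class of Hnrnpa2b1, and 2.61% at 30 to 100 CPM, that of Emx2. Values below counting error are the extremes of a ranking and do not show that these genes are more stable.

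Ribosomal protein genes summed to 45419, 46822 and 47047 TPM over 84 genes. Their mRNAs are known for a run of pyrimidines at the 5′ end (the TOP motif), through which their translation is controlled. Of these 84 genes, 64 had an entry in the RefSeq promoter table (GRCm38.p6, 250 bases before to 50 after the start). On the sense strand, a run that begins with C, goes on with at least 4 further C or T, and begins within 5 bases of the annotated start stood in 30 of 64 (46.9%). The share was 21.2% of all 27025 genes of the table and 25.1% of 638 other protein-coding genes at 100 TPM or more. With the run beginning at the first transcribed base itself, the shares were 21.9%, 3.01% and 3.92%. Both definitions were looked at before the wider was chosen for display. TATAAA stood in the same windows of 9.38% of ribosomal protein genes and 9.77% of all genes. To show the run, 60 bases (40 before and 20 after the start) are given for 3 ribosomal protein genes with the run. They have the highest TPM among those with a single entry, in a choice that left out a whole chromosome. Neurod6 and Eomes, without the run, are given beside them. Capitals mark the run.
Rps6: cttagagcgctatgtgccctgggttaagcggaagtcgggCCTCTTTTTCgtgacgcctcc
Rpl7a: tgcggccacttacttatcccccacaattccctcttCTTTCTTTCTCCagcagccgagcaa
Rps23: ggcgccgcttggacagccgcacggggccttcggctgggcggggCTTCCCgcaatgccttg
Neurod6: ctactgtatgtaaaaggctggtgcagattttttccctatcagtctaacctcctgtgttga
Eomes: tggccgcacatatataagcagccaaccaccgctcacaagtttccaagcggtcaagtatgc
The windows lie at chr4:86857348-86857407 (minus strand) for Rps6, chr2:26910767-26910826 (plus strand) for Rpl7a, chr13:90923082-90923141 (plus strand) for Rps23, chr6:55681244-55681303 (minus strand) for Neurod6 and chr9:118478149-118478208 (plus strand) for Eomes. Mean levels were 952 TPM for Rps6, 942 for Rpl7a and 903 for Rps23. The capitals cover 10, 12 and 6 bases, and in Rpl7a further pyrimidines stand directly before them, outside the limit set for the first base. A match of these letters is a description and shows no control in these cells.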

How the data were processed

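RNA of GFP+ cortical cells was sequenced, and unnormalized counts for 53379 gene IDs were deposited. Named without roles, per the submitters' processing notes, are the build mm10 and the tools STAR 2.4.2a, bcl2fastq 2.17.1.14 and DESeq2. For the counting program, strand setting and annotation, nothing is given in the sources used here. Overlapping and antisense genes may therefore share reads.

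The 3 scramble columns were used. Groups come from the labels. IDs were joined to GENCODE M21 without version (53274 matched, 105 not, 0.0223% of counts). TPM was computed from merged exon lengths. Libraries were scaled by TMM (edgeR 4.0.16, R 4.3.3), and deviations were taken on log2(CPM + 0.5). Sequence sharing was measured as the share of exact 50-base stretches of a gene's transcripts that occur on the same strand in another gene's. No test between groups was made. The replicates are called biological, and their SD is the error given.

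The edgeR spread estimate was tested on simulated data: spreads of 5, 10 and 20% put in gave 4.98, 10.01 and 20.0%. With 200 of 14611 genes changed in 1 library the estimates were higher, at 7.21, 11.2 and 20.5%.

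Members, lists and families were chosen with earlier results of these data known. The text names the 25 highest genes, the 6 group markers, list members (all of lists of up to 12, otherwise the 6 highest and 3 lowest), the first and second member of each family and members without counts, the 12 genes of highest and 6 of lowest coefficient of variation at 10 CPM or more, and the 5 genes farthest above and below in each library. Others, among them the 25 highest unshared genes, Pdgfra, Pdgfrb and further members of long lists, were chosen after their values were seen. A few genes and families that enter the counts are not reported here by name. Alternatives were other lengths, denominators, scalings, thresholds and leaving out each library.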

Additional observations from a re-analysis of the deposited data

How the results depend on the processing

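Depth limits genes near 1 TPM, the counting of reads that match several genes is not known, and gene length is a choice. All values describe 3 libraries of a single group. No paired analysis was possible because a single group was described and no groups were compared. The number of genes at 1 TPM or more and the number of families with a member over 50% stayed within 1.5 times their values under each alternative. They came to 11240 to 17077 genes and to 72 to 79 of 96 families. With unshared genes only, where 89 families could be counted, 69 had such a member. Leaving out replicates 1, 2 and 3 in turn gave medians of the coefficient of variation of 5.54 to 7.61%. These rest on 2 libraries, where the median of such a coefficient is lower by construction, so they do not compare with 7.98%. Over all 3 libraries the median was 6.13% at a mean of 10 CPM or more and 19.0% without a filter. It hardly differed from 7.98% with library totals, with RLE factors or in unshared genes (7.42%). The share of TPM in the 25 most abundant genes was 14.3% with the longest transcript as length, 9.59% with the median transcript length, 13.6% over nuclear protein-coding genes and 8.69% over unshared ones, an alternative chosen after seeing the data. In the same order, apical progenitor markers summed to 2193, 2654, 3168 and 4489.8 TPM. Basal progenitor markers came to 1955 with the median length, 5482 over nuclear protein-coding genes and 7768 over unshared genes. Newborn neuron markers came to 10930.1, 9130.2, 18502 and 19918 TPM in that order, and non-neural markers to 218 and 209 in the last settings. The cause of a shift with the denominator is its construction, since fewer genes share the same total.

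The log2 ratio of first to second family member changed sign in 20 of 95 families in some setting, and 17 of them are given here. With the longest transcript as length, the values were Phf10 over Dpf1 -0.036, Bcl11b over Bcl11a -1.09, Tcf3 over Tcf4 -0.68, Dpysl3 over Crmp1 -0.15, Hk2 over Hk1 -0.75, Mbnl2 over Mbnl1 -0.53. With the median transcript length they were Bcl11b over Bcl11a -0.76, Tcf3 over Tcf4 -3.81, Cdh2 over Cdh4 -1.93, Dpysl3 over Crmp1 -0.71, Dnmt1 over Dnmt3a -1.03, Slc2a1 over Slc2a3 -0.59, H3f3b over H3f3a -0.78, Hmgb3 over Hmgb2 -1.25, Hk2 over Hk1 -1.73, Mbnl2 over Mbnl1 -1.56, Pfkm over Pfkl -1.69, Ptbp1 over Ptbp2 -0.61, Sox9 over Sox8 -1.22, Eomes over Tbr1 -0.48. In CPM, without length, they were Bcl11b over Bcl11a -0.66, Fabp7 over Fabp5 -1.23, Tcf3 over Tcf4 -2.22, Slc2a1 over Slc2a3 -0.31, Hmgb3 over Hmgb2 -0.0098, Hk2 over Hk1 -0.38, Mbnl2 over Mbnl1 -0.56, Nectin2 over Nectin1 -0.31, Ptbp1 over Ptbp2 -0.33. Leaving out 1 replicate gave Bcl11b over Bcl11a -0.12 to 0.27. The change with length follows from the construction of the ratio.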

Other observations

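Glycolytic genes were read throughout, with 21 of 21 at 1 TPM or more and a sum of 2016, 2272 and 2275 TPM. Of these, 15 were lowest in replicate 1, against 37.2% over all genes. The highest unshared member of the first 6 was triosephosphate isomerase Tpi1, with 118, 139 and 142 TPM. Ldhb, Pkm, Pgk1, Pgam1 and Gapdh were higher, and each has sequence in common with other genes.

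Genes that p53 induces were uneven. Bax, which opens the outer mitochondrial membrane, had 90.5, 94.7 and 94.4 TPM, Trp53inp1 had 64.98, 62.1 and 62.6 TPM, and Mdm2, the ligase that degrades p53, had 46.6, 56.4 and 55.6 TPM. The cell cycle inhibitor Cdkn1a was at 2.49 ± 0.371 TPM, Pmaip1 at 0.886 ± 0.285 TPM, and the death receptor Fas at 0, 0 and 0.0755 TPM. Of 10 members at 1 CPM or more, 8 were lowest in replicate 1, against 37.2% over all genes. Phlda3 was highest in replicate 3, with 5.01, 6.52 and 11.04 TPM.

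The 14-3-3 adaptor proteins summed to 1847 TPM, with Ywhae (701 ± 30.4 TPM) ahead of Ywhaq (385 ± 14.5 TPM). Calm2 held 74.1, 74.4 and 76.4% of calmodulin TPM. The 3 calmodulin genes encode the same protein.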
